A study of Mus musculus with 67 samples.

Results

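Protein kinases attach phosphate to other proteins and protein phosphatases take it off, and the balance of these enzymes passes signals from receptors to ion channels, enzymes and transcription factors. In the striatum, dopamine acts on medium spiny neurons largely through cyclic AMP and protein kinase A (PKA), glutamate through calcium, calmodulin-dependent kinases and the phosphatase calcineurin, and growth factors through the mitogen-activated protein (MAP) kinase cascade, in which each kinase activates the next. Protein phosphatase 1 (PP1) and protein phosphatase 2A (PP2A) are catalytic enzymes that find their targets through regulatory subunits.

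The genes described here were chosen by name, with no use of their values. They are those whose symbol starts with Map2k, Map3k, Map4k, Mapk, Camk, Prk, Cdk, Csnk or Stk, called kinase genes, and those whose symbol starts with Ppp, Ptp or Dusp, called phosphatase genes, with Ppp1r1b left out. Of the 4209 genes named on the array the rule took 58 kinase genes and 43 phosphatase genes, which together hold 121 of its 8448 features. A further 10 features that carry such a symbol together with another were left out. The classes go by name, so they also hold subunits, inhibitors and scaffolds. Cdkn1c and Cdkn2c are inhibitors of cyclin-dependent kinases, Cdkn3 is itself a phosphatase, Mapk8ip2 and Mapk8ip3 are scaffolds of the JNK branch of the MAP kinase cascade, Ptpa is an activator of PP2A, and Dusp11 acts on RNA.

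RNA of the striatum was measured on nylon cDNA filters in 67 C57BL/6 mice, with 1 array for each mouse. Mice were fed ad libitum (AL) or were kept on caloric restriction (CR), in which a fortified feed was reduced in steps. The adult groups, with both sexes pooled, were 10 young AL mice of 169 to 194 days and 9 young CR mice of 174 to 194 days. Middle-aged mice numbered 10 on AL, of 476 to 499 days, and 10 on CR, of 472 to 499 days. The old groups held 10 AL mice of 704 to 743 days and 8 CR mice of 673 to 743 days. Young CR held 4 males and old CR 3, and otherwise each adult group had 5 mice of each sex. Another 10 mice were AL juveniles, 5 early (17 to 21 days) and 5 late (33 to 44 days). The old CR males were 3 mice of 673 days and the old AL males 5 mice of 714 to 743 days, so age and diet cannot be told apart in old males. The values are Z scores, scaled so that the features of every array average 0 with an SD of 1. A difference is therefore given in Z units, a level below 0 means a signal below the array's mean, and levels of different genes are not set against each other. Each difference averages the sexes with equal weight.

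Several facts about the arrays bear on every value. The columns with title numbers 66 and 67 were listed in the opposite order from the others and were turned end to end, which brought their correlation with the median profile from 0.138 and 0.135 to 0.992 each. The order of the other columns was taken as the reference, which cannot be checked from the names, and gene names hold only if that order is the right one. A set of 8 arrays, 7 of them from adults, stood apart, with correlations of 0.925 to 0.946 with that profile against 0.976 to 0.995 for the other 59. Of the adult arrays that stood apart, 2 were in young AL and 1 in each of the other groups by age and diet. Of the markers listed for striatal neurons, 5 of 21 were named on the array (Foxp1, Strn, Rasd2, Arpp19 and Meis2) and 4 had a mean score above 0. The dopamine receptors, Penk and Pdyn, which define these neurons, were not among the genes named, so the label of the tissue could be checked only in part.

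The pairing of names with values also has a limit. Among all 485 genes with 2 features, the mean scores of the 2 features correlated at r = 0.0502, and their deviations between mice at a median r of 0.0282, both given as descriptions over features of the same arrays. Among the 20 kinase and phosphatase genes with 2 features, the mean scores of the 2 features lay on opposite sides of 0 in 10 genes and differed by a median of 0.849, with a range of 0.0153 to 2.15. Ppp3ca, the alpha catalytic subunit of calcineurin, had feature means of 0.237 and 1.70. For Prkaca, the alpha catalytic subunit of PKA, they were 0.880 and -0.305, and for Mapk14, the stress-activated kinase p38 alpha, 0.405 and -1.75. Within groups, and without the arrays that stood apart, the 2 features of a gene correlated at a median r of -0.102 over 50 adult mice, from -0.606 for Ppp3ca to 0.554 for Mapkapk5.

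The score also followed a feature's place in the file, with a repeat of 22 rows. The place within this repeat accounted for 38.6% of the variance of mean scores over all features and for 43.7% over the features of kinase and phosphatase genes. Of 121 such features, 21 lay in the 4 lowest places, and 2 of those 21 had a mean score above 0, against 55 of 100 in the other places. Names are used below as the array's annotation gives them, and each value belongs to the feature so named.

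**Figure D1:**
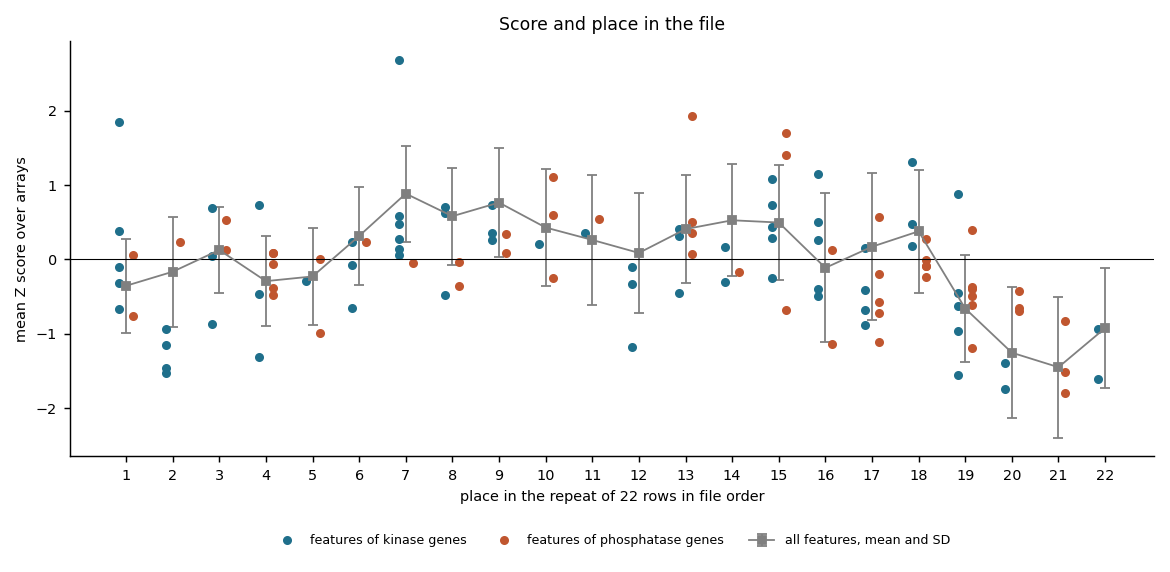
Mean Z score of each feature of a kinase gene (blue) or phosphatase gene (orange), over arrays, against its place in the repeat of 22 rows in file order; grey squares and bars are the mean and SD of all 8448 features at that place. Place means run from -1.45 to 0.886, and most kinase and phosphatase features in the last 4 places lie below 0.

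Over the 57 adult arrays, 32 of 58 kinase genes and 18 of 43 phosphatase genes had a mean score above 0. These 50 genes were tested and the other 51 were called low. The word low takes no account of a feature's place in the repeat of 22 rows. For example, Map2k1, at -0.938, lay at a place where all features averaged -0.924. Without the arrays that stood apart, the median SD between mice within groups was 0.106 for tested kinase genes and 0.108 for tested phosphatase genes.

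By family, 6 of 14 genes of the MAP kinase cascade were above 0. Mapk13, the p38 delta kinase, had a mean score of 1.85, and Map3k7, the kinase TAK1 of the transforming growth factor and cytokine pathways, 0.275. Map2k1, which activates the ERK kinases, was low at -0.938.

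Of the calmodulin-dependent kinases, 3 of 4 were above 0. The delta subunit of CaM kinase II, Camk2d, had a mean score of 0.312, and the gamma subunit, Camk2g, -0.929. Of the 5 PKA genes, Prkar1a, a regulatory subunit, and Prkaca were tested, with means of 0.727 and 0.287. The other regulatory subunits on the array, Prkar2a and Prkar2b, were low at -0.625 and -1.16.

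All 3 genes of AMP-activated protein kinase (AMPK), the sensor of cellular energy, were above 0. The catalytic subunit Prkaa1 had a mean score of 1.08, and the regulatory subunits Prkab1 and Prkab2 had 0.0440 and 0.186. Among 14 genes named for cyclin-dependent kinases, 11 were above 0, including Cdk5, a kinase of neurons, at 0.235 and Cdkn3 at 2.69, while of 6 casein kinase genes 1 was, Csnk1g2, at 0.704.

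Over all 7782 rows 3904 had a mean score above 0. Of 8 genes of PP1, 7 were above 0, including Ppp1r12b, a myosin phosphatase subunit, at 1.40 and Ppp1r9b, the spine scaffold spinophilin, at 1.15. Of 7 genes of PP2A, 0 were, with means from -1.10 (Ppp2r5a) to -0.0539 (Ppp2r5c), both regulatory subunits. Of the 10 features of these PP2A genes, 5 lay in the 4 lowest places of the repeat. In calcineurin Ppp3ca averaged 0.967, while Ppp3cb, the beta catalytic subunit, and Ppp3r1, the regulatory subunit, averaged -0.970 and -0.429. Of 7 cytosolic (Ptpn) and 6 receptor (Ptpr) tyrosine phosphatases, 1 each was above 0: Ptpn6, known from blood cells, at 0.498 and Ptprs, a receptor of axons and synapses, at 0.0689.

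**Figure D2:**
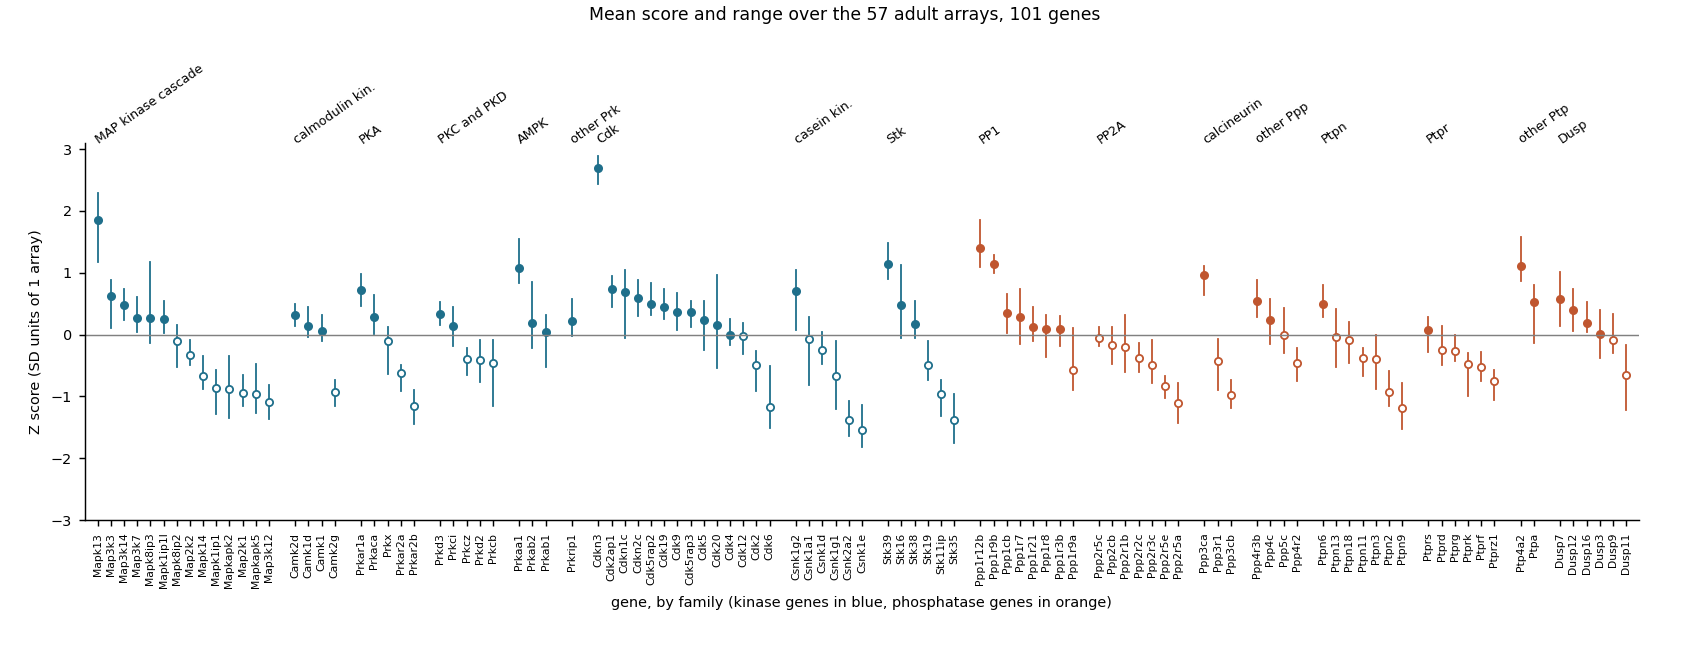
Mean Z score (point) and range (line) of each of the 58 kinase and 43 phosphatase genes over the 57 adult arrays, by family; filled points are the 50 genes with a mean above 0, which were tested. Means run from -1.55 (Csnk1e) to 2.69 (Cdkn3), and all 7 PP2A genes lie below 0.

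The comparison of ages asked whether these genes change over adult life. Between young and old mice no kinase or phosphatase gene passed the test, and the differences were small. In old against young mice of both diets, limma called 0 of 50 genes at an adjusted p of 0.05, against 0% of all 3904 rows tested. At an unadjusted p under 0.05 it held 0, against 0.41% of all rows. Rows with no change would pass that threshold at a share of about 0.05. In each contrast of this fit the share of all rows was smaller, so its p-values ran high. A low count here and below therefore does not show a lack of change. Of 32 kinase genes 19 were higher and 13 lower in old mice, with a median difference of 0.00360. Of 18 phosphatase genes 7 were higher and 11 lower, with a median of -0.00491, and over all rows the median was 0.00338.

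The differences of single genes between old and young ran from -0.0795 for Csnk1g2, a casein kinase of the membrane, to 0.0762 for Cdk20, a kinase linked to cilia. The 95% intervals of these 50 differences reached at most 0.185 to either side, which sets the precision for the least precise gene. Those with the smallest unadjusted p were Camk1, a calmodulin-dependent kinase, at 0.0531 ± 0.0296 (SE, 18 old and 19 young mice; adjusted p = 1.00), and Map3k7, at 0.0707 ± 0.0413 (SE; adjusted p = 1.00).

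**Figure D3:**
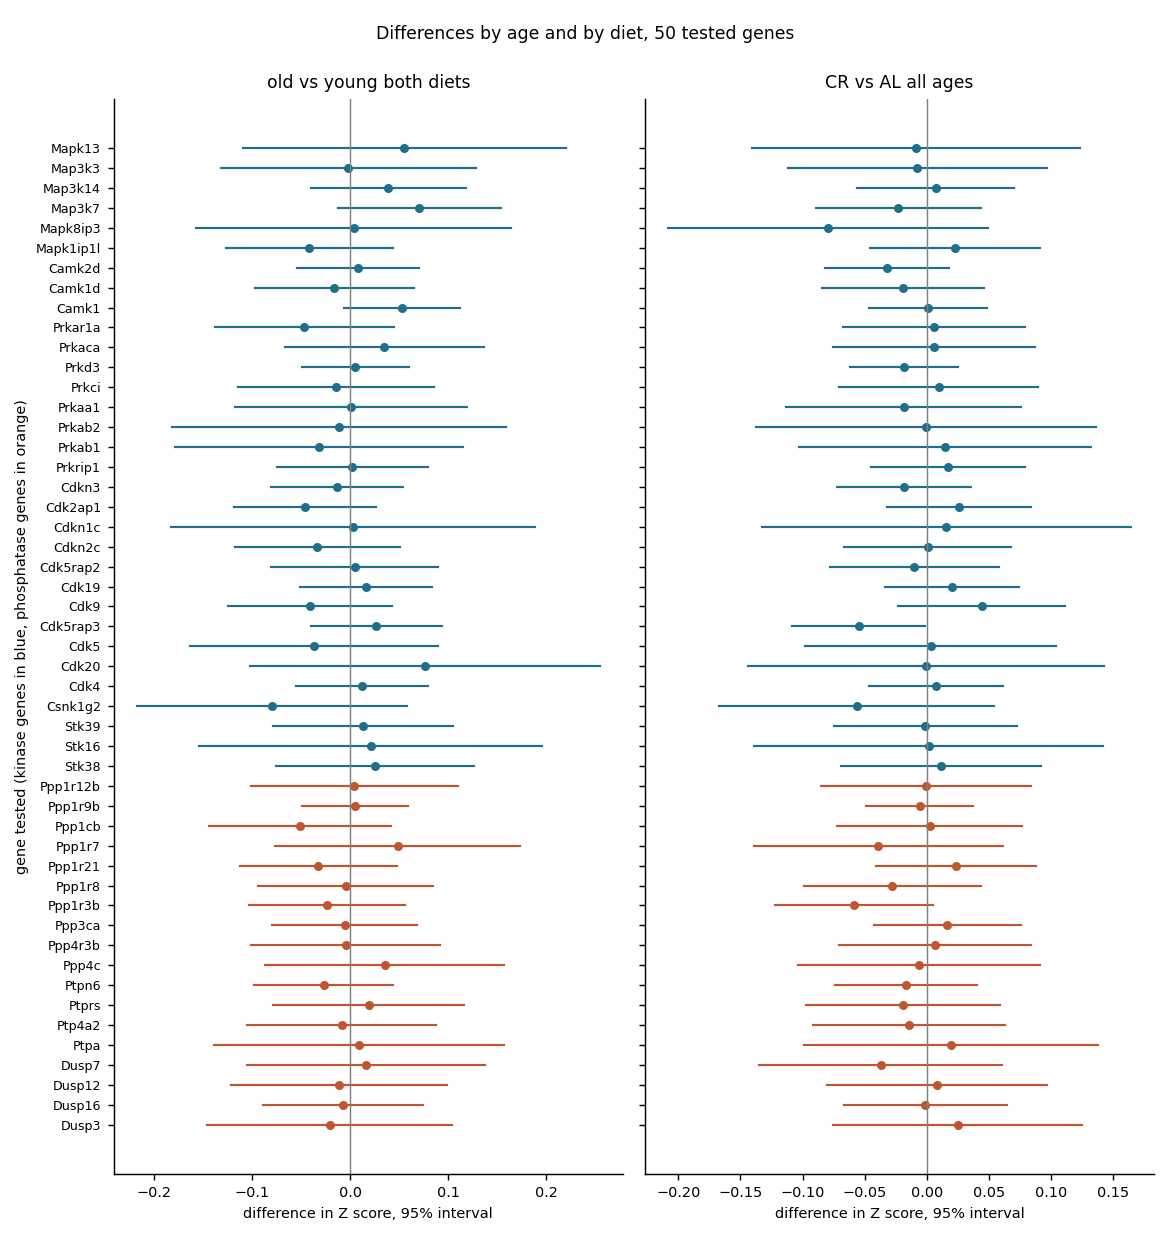
Difference in Z score, with its 95% interval, of each of the 50 tested genes for old minus young mice of both diets (left) and for CR minus AL over the 3 adult ages (right). Kinase genes are blue and phosphatase genes orange. Points lie between -0.0795 and 0.0762 on both sides, and the interval of 1 gene, Cdk5rap3 under CR, leaves out 0.

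Within AL mice, 0 of 50 genes were called by limma in any of the 3 pairs of ages. At an unadjusted p under 0.05, middle against young AL held 1 gene of 50, against 0.845% of all rows, and old against middle and old against young AL held 0, against 0.333% and 0.307%. The 1 gene was Cdk2ap1, which binds Cdk2. Its scores ran from 0.75 to 0.90 with a median of 0.765 in young AL mice, and from 0.44 to 0.76 with a median of 0.700 in middle AL mice. The ranges met at their edges, and the lowest middle AL value, 0.44, lay well below the next of that group, 0.66. The difference was -0.103 ± 0.0480 (SE; unadjusted p = 0.0367, adjusted p = 1.00 by limma). In old AL mice Cdk2ap1 ran from 0.50 to 0.83, across the ranges of both younger groups.

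Within CR mice, 0 of 50 genes were called by limma in any pair of ages. At an unadjusted p under 0.05, middle against young CR held 0 genes, against 2.18% of all rows, old against young CR held 0, against 0.154%, and old against middle CR held 2 of 50, against 0.999%. These 2 were Camk2d and Cdk5rap3, which encodes a binding partner of the Cdk5 activator. Their values are given in turn.

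Camk2d had scores of 0.14 to 0.50 with a median of 0.26 in young CR mice, 0.17 to 0.35 with a median of 0.24 in middle CR mice, and 0.18 to 0.46 with a median of 0.355 in old CR mice. The old and middle ranges overlapped over most of their length. The difference of old against middle CR was 0.116 ± 0.0448 (SE; unadjusted p = 0.0124, adjusted p = 1.00 by limma), and without the arrays that stood apart it was 0.112 ± 0.0497. In AL mice the medians of Camk2d were 0.36, 0.275 and 0.35 from young to old, with ranges that overlapped as well.

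Cdk5rap3 had scores of 0.12 to 0.43 with a median of 0.285 in middle CR mice, 0.26 to 0.48 with a median of 0.40 in old CR mice, and 0.28 to 0.53 with a median of 0.36 in middle AL mice. Middle CR overlapped with both of the other groups. It was higher in old than in middle CR by 0.116 ± 0.0480 (SE; unadjusted p = 0.0194, adjusted p = 1.00 by limma) and differed between middle CR and middle AL by -0.0970 ± 0.0444 (SE; unadjusted p = 0.0338, adjusted p = 1.00). Without the arrays that stood apart these differences were 0.117 ± 0.0520 and -0.0938 ± 0.0460. Both contrasts share the middle CR mice.

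The change from young to old did not differ detectably between diets. For the difference of the differences, CR minus AL, limma called 0 of 50 genes, and 0 genes had an unadjusted p under 0.05, against 0.179% of all rows. Medians were 0.0370 over the kinase genes, 0.0119 over the phosphatase genes and 0.00283 over all rows. In old against young CR mice alone, 20 of 32 kinase genes were higher, with a median of 0.0249, and in AL mice 14 of 32, with a median of -0.00400. The 95% intervals of this contrast reached up to 0.371 to either side, so it is the least precise of the adult contrasts.

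The comparison of diets asked whether restriction shifts these genes at a given age. Over the 3 adult ages no kinase or phosphatase gene passed the test between CR and AL mice. limma called 0 of 50 genes, against 0% of all rows, and 1 of 50 had an unadjusted p under 0.05, against 0.256% of all rows. Of 32 kinase genes 17 were higher and 15 lower under CR, with a median difference of 0.000681. Of 18 phosphatase genes 7 were higher and 11 lower, with a median of -0.00341, and over all rows the median was -0.00269.

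The 1 gene was Cdk5rap3, at -0.0548 ± 0.0266 (SE, 27 CR and 30 AL mice; unadjusted p = 0.0450, adjusted p = 1.00). Mapk8ip3, a scaffold that also links motor proteins to cargo, had the lowest difference, -0.0795 ± 0.0641, and Cdk9, a kinase of transcription elongation, the highest, 0.0442 ± 0.0333. The 95% intervals reached at most 0.149 to either side. Age by age, limma called 0 genes in each, and the counts at an unadjusted p under 0.05 were 0 in young mice, against 0.487% of all rows, 1 in middle-aged mice (Cdk5rap3), against 0.0768%, and 0 in old mice, against 0.102%.

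The comparison of juveniles with young adults, both on AL, asked about maturation. limma called 0 of the 50 genes tested there (31 kinase and 19 phosphatase genes) in each of 3 contrasts. At an unadjusted p under 0.05 the counts were 1 for young adults against early juveniles, against 0.668% of 3892 rows, 1 for young adults against late juveniles, against 1.03%, and 2 for late against early juveniles, against 1.49%. These were Ppp1r3b, which brings PP1 to glycogen, and Cdk2ap1.

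Ppp1r3b ran from -0.11 to 0.15 with a median of -0.04 in early juveniles, from 0.05 to 0.26 with a median of 0.13 in late juveniles, and from 0.05 to 0.21 with a median of 0.165 in young AL adults. The lower end of the early juveniles lay below both other groups, and the ranges overlapped between 0.05 and 0.15. Young adults exceeded early juveniles by 0.146 ± 0.0550 (SE; unadjusted p = 0.0153, adjusted p = 1.00 by limma), or by 0.139 ± 0.0580 without the arrays that stood apart. Late juveniles exceeded early juveniles by 0.150 ± 0.0640 (SE, adjusted p = 0.999 by limma). Without the arrays that stood apart, late against early juveniles no longer had an unadjusted p under 0.05 for this gene. The contrasts share the early juveniles.

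Cdk2ap1 ran from 0.69 to 0.94 with a median of 0.78 in early juveniles and from 0.59 to 0.74 with a median of 0.65 in late juveniles, against 0.75 to 0.90 in young AL adults. The late juveniles did not overlap with the young adults. Young adults exceeded late juveniles by 0.127 ± 0.0498 (SE, unadjusted p = 0.0187, adjusted p = 1.00 by limma), or by 0.113 ± 0.0466 without the arrays that stood apart. Late against early juveniles was -0.129 ± 0.0579 (SE, unadjusted p = 0.0377, adjusted p = 0.999 by limma). Without those arrays that contrast no longer had an unadjusted p under 0.05 for Cdk2ap1.

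The arrays that stood apart differed from the rest in many of these genes. Of the tested genes, 12 of 32 kinase genes (37.5%) and 6 of 18 phosphatase genes (33.3%) had no overlap between the 8 arrays and the other 59, against 37.6% of all rows. The arrays were picked on all features, so these counts describe them and are not tested. The shift of the 7 adult arrays against the other adults ran from -0.733 for Cdkn1c to 0.661 for Prkab2, against at most 0.0795 in size between old and young mice.

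The 3 AMPK genes had no overlap between these arrays and the others, with shifts in both directions. Over all rows, 667 of the 1468 without overlap were higher in these arrays, so such shifts were not particular to AMPK. Prkab2 ran from 0.67 to 0.87 in the 8 arrays and from -0.21 to 0.42 in the others. Prkaa1 lay at 1.35 to 1.55 against 0.84 to 1.29. Prkab1 lay the other way, at -0.53 to -0.36 against -0.17 to 0.32.

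Single genes of PKA and calcineurin are given as further examples of this shift, which ran over the whole array. Prkaca lay at 0.530 to 0.640 in the 8 arrays and at 0.0150 to 0.435 in the others. Ppp3ca lay lower, at 0.645 to 0.825 against 0.895 to 1.13, while Prkar1a overlapped, at 0.75 to 0.98 against 0.46 to 0.94. Among the kinases that also had lower scores there were Csnk1g2, at 0.08 to 0.36 against 0.42 to 1.05, and Cdk5, at -0.25 to -0.03 against 0.04 to 0.54. Without the 7 arrays, the median SD within groups fell from 0.130 to 0.106 over kinase genes and from 0.143 to 0.108 over phosphatase genes.

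**Figure D4:**
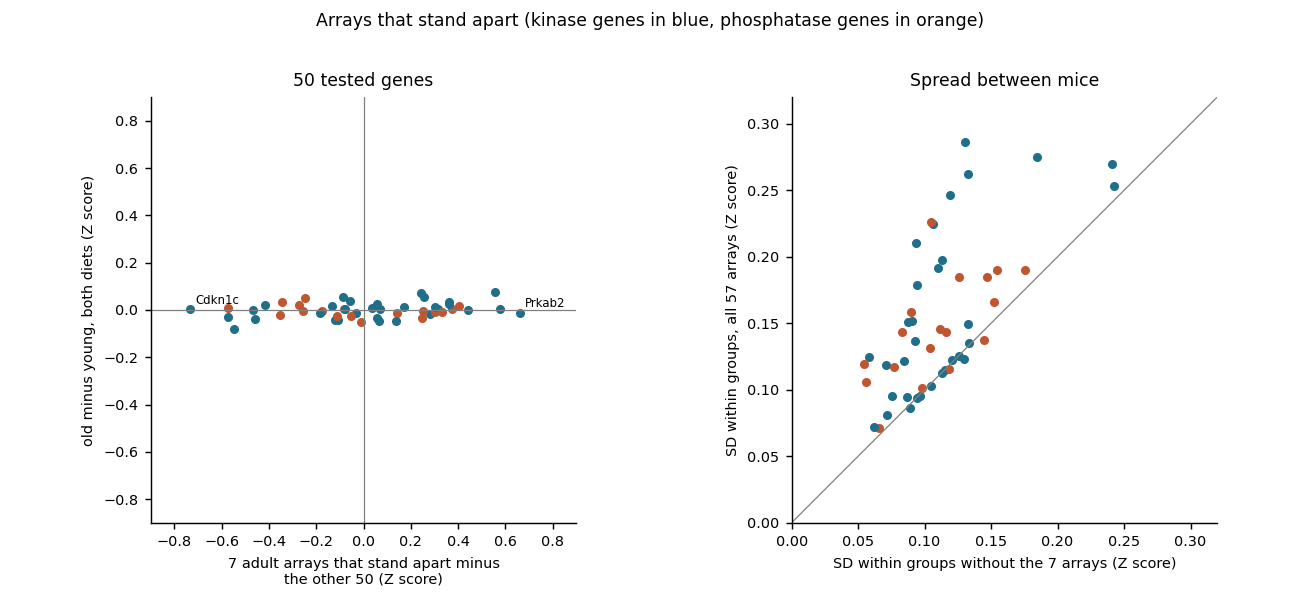
Left, each tested gene's shift in the 7 adult arrays that stood apart, against the other 50, on the x axis and its difference between old and young mice on the y axis, both in Z units on equal scales; right, SD between mice within groups with and without the 7 arrays. Shifts run from -0.733 to 0.661 while differences by age stay within 0.0795, and most SDs lie above the diagonal.

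Without the 8 arrays limma again called 0 genes in each of the 15 contrasts. Cdk2ap1 in middle against young AL and Cdk5rap3 in CR against AL over all ages no longer had an unadjusted p under 0.05, at -0.0873 ± 0.0515 (SE; unadjusted p = 0.0973, adjusted p = 0.999 by limma) and -0.0384 ± 0.0282 (SE; unadjusted p = 0.180, adjusted p = 0.999 by limma). Ppp1r3b and Cdk2ap1 in late against early juveniles no longer had one either. In that contrast 2 of 50 genes had an unadjusted p under 0.05 by limma (Camk1d and Cdk5), against 2.92% of all rows. In middle against young CR there were 8 of 50, against 18.4% of all rows, and in old against middle CR 6 of 50, against 7.02%. In old against young mice of both diets there were 3 of 50 (Camk1, Csnk1g2 and Map3k7), against 1.63%. Within AL mice old against young held 2 of 50, against 0.868%, and within CR mice 3 of 50, against 1.07%. CR against AL at middle age held 3 of 50 (Cdk20, Cdk5rap3 and Csnk1g2), against 0.817%. For young adults the counts were 1 of 50 with early juveniles, against 0.793%, and 4 of 50 with late juveniles, against 3.2%. The remaining contrasts held 0.

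A fit that weights each array by its agreement with the others, with weights estimated gene by gene, was chosen after seeing the data. It called 3 of 50 genes in middle against young CR, where it called 13.1% of all rows. It called 1 of 50 in old against middle CR, with 0.205% of all rows, and 4 of 50 in old against young CR, with 10.5%. It called 0 of 50 in each of the other contrasts.

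**Figure D5:**
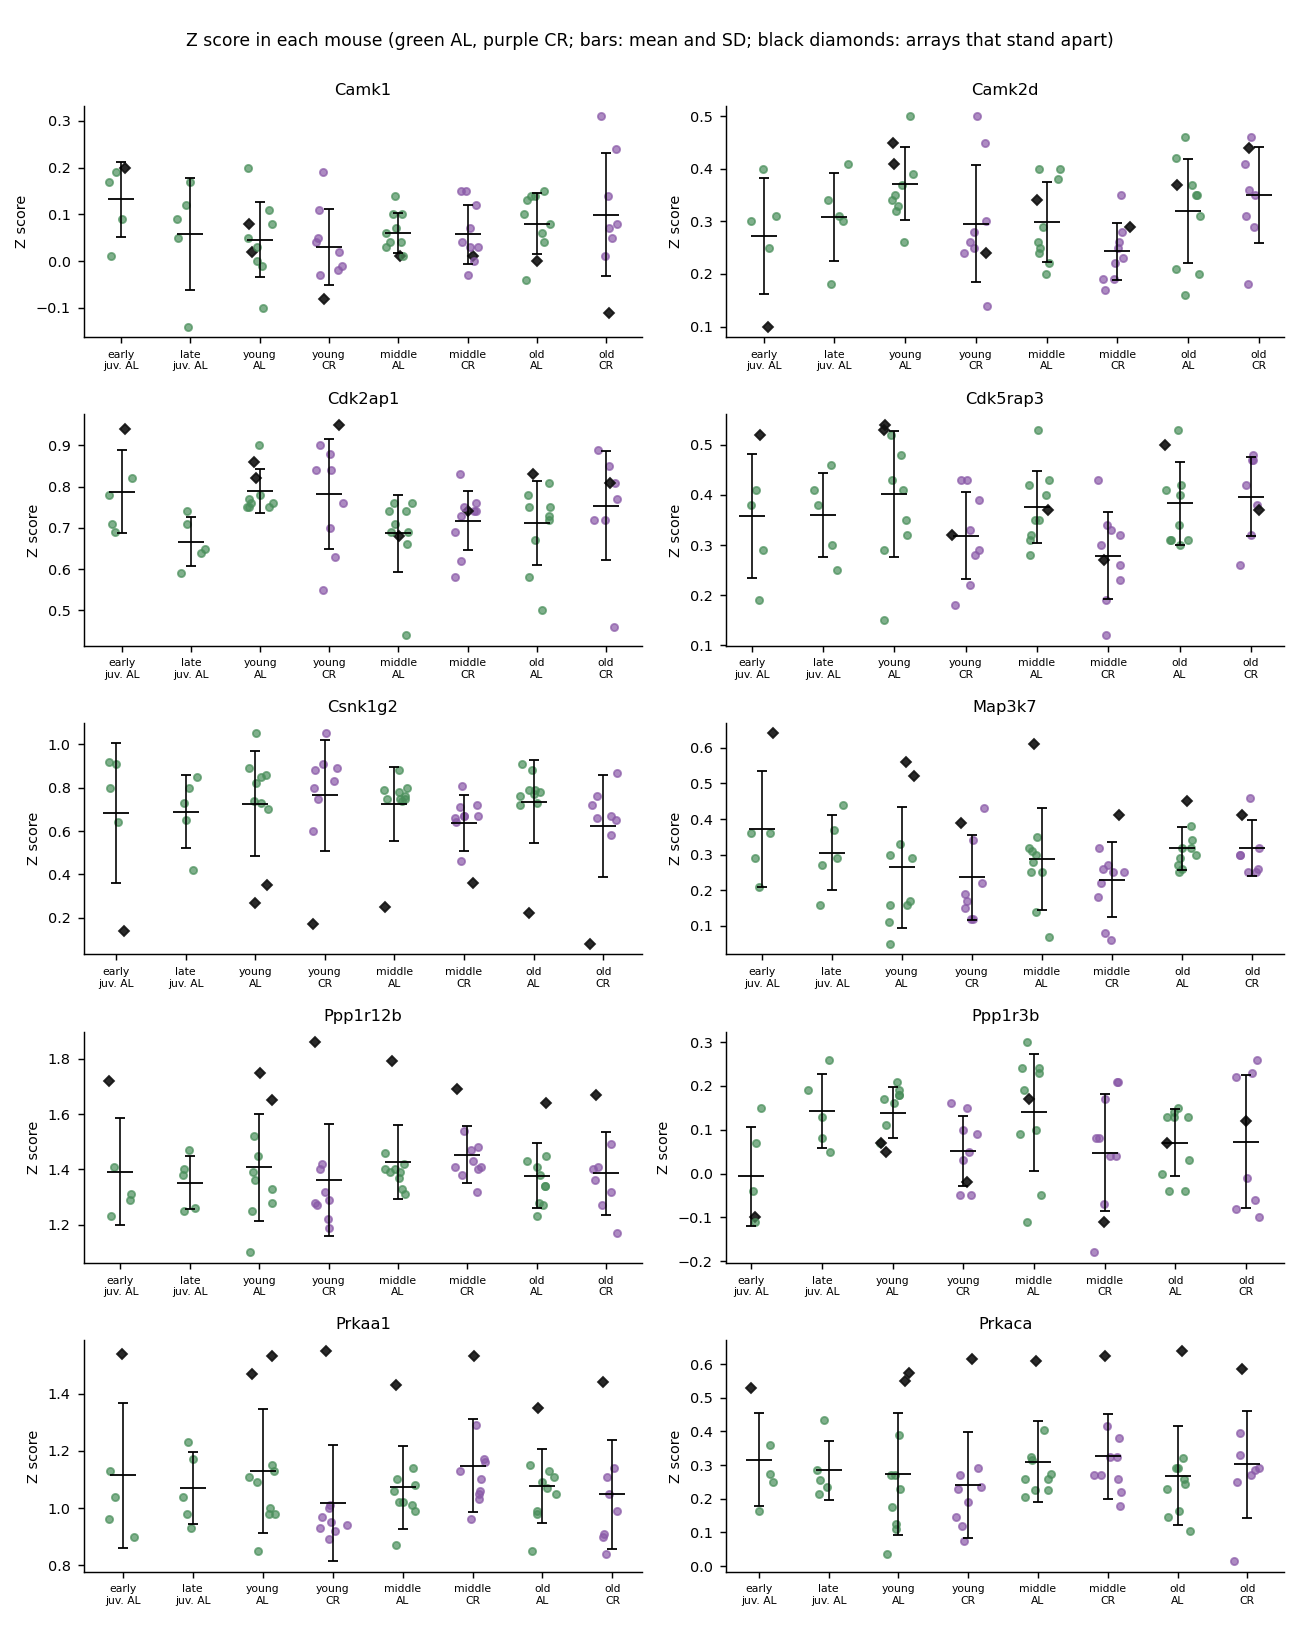
Z score of 10 genes in each of the 67 mice, by age and diet (AL green, CR purple), with the mean and SD of each group; black diamonds are the 8 arrays that stood apart. For Csnk1g2, Ppp1r12b, Prkaa1 and Prkaca the diamonds lie outside the range of all other mice. In each gene the adult groups overlap, while for Cdk2ap1 the late juveniles do not overlap with the young AL adults.

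The genes called in that fit had modest differences. Prkaa1 ran from 0.89 to 1.55 with a median of 0.95 in young CR mice, where the highest mouse, on an array that stood apart, lay above the next, 1.01. In middle CR mice it ran from 0.96 to 1.53 with a median of 1.115. Without the arrays that stood apart the ranges were 0.89 to 1.01 and 0.96 to 1.29, which overlapped at their edge. The difference was 0.138 ± 0.0810 in all mice (SE; adjusted p = 0.893), 0.153 ± 0.0471 without those arrays (adjusted p = 0.201), and 0.156 ± 0.0432 with gene-by-gene weights (adjusted p = 0.0186). In AL mice the same contrast of ages gave -0.0570 ± 0.0786 in all mice.

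Csnk1g2 had scores of 0.60 to 1.05 with a median of 0.855 in young CR, 0.46 to 0.81 with a median of 0.67 in middle CR and 0.58 to 0.87 with a median of 0.67 in old CR mice, leaving out the arrays that stood apart. The young CR mice reached higher than the others, with overlap. Middle against young CR was -0.137 ± 0.0946 in all mice (SE; adjusted p = 0.893) and -0.180 ± 0.0419 with the weights (adjusted p = 0.00902). Old against young CR was -0.168 ± 0.102 in all mice (adjusted p = 0.977) and -0.182 ± 0.0436 with the weights (adjusted p = 0.0179).

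Map3k7 had scores of 0.06 to 0.41 with a median of 0.25 in middle CR mice and 0.25 to 0.46 with a median of 0.30 in old CR mice. The old mice lacked the low values of the middle group, and the ranges overlapped from 0.25 to 0.41. The difference was 0.100 ± 0.0597 in all mice (SE; adjusted p = 1.00), 0.112 ± 0.0477 without the arrays that stood apart (adjusted p = 0.634) and 0.177 ± 0.0390 with the weights (adjusted p = 0.0373). In AL mice the same contrast of ages gave 0.0300 ± 0.0553 in all mice.

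Camk1 had scores of -0.08 to 0.19 with a median of 0.02 in young CR and -0.11 to 0.31 with a median of 0.075 in old CR mice. The old range held the young one. The difference was 0.0722 ± 0.0439 in all mice (SE; adjusted p = 0.977) and 0.114 ± 0.0343 with the weights (adjusted p = 0.0322).

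Prkaca had scores of 0.0750 to 0.615 with a median of 0.230 in young CR and 0.0150 to 0.585 with a median of 0.288 in old CR mice. The ranges overlapped almost fully. The difference was 0.0735 ± 0.0749 in all mice (SE; adjusted p = 0.977) and 0.133 ± 0.0399 with the weights (adjusted p = 0.0318).

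Ppp1r12b had scores of 1.19 to 1.86 with a median of 1.29 in young CR, 1.32 to 1.69 with a median of 1.42 in middle CR and 1.17 to 1.67 with a median of 1.38 in old CR mice. The 3 ranges overlapped. Middle against young CR was 0.0950 ± 0.0725 in all mice (SE; adjusted p = 0.893) and 0.118 ± 0.0381 with the weights (adjusted p = 0.0338). Old against young CR was 0.0397 ± 0.0780 in all mice and 0.116 ± 0.0396 with the weights (adjusted p = 0.0486).

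In the fit with equal weights Ppp3ca, Ppp1r9b, Prkar1a, Cdk5, Ppp1cb and Ptprs showed no called difference. Ppp3ca ran from 0.645 to 1.035 with a median of 0.958 in young AL mice and from 0.825 to 1.08 with a median of 0.965 in old AL mice, with overlap. Old against young of both diets was -0.00544 ± 0.0366 (SE), and CR against AL 0.0165 ± 0.0294. The mean of its 2 features is used here, although these differed in level as given above. Within groups the 2 features moved in opposite directions, at r = -0.829 over 57 adult mice, so their mean varied less than either. Fitted alone, they gave -0.0454 ± 0.105 and 0.0345 ± 0.0545 (SE) for old against young of both diets.

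Ppp1r9b had an SD within groups of 0.0710. It ran from 1.07 to 1.23 in young AL and from 1.03 to 1.25 in old AL mice, again overlapping. Old against young was 0.00510 ± 0.0267 (SE) and CR against AL -0.00568 ± 0.0214. Prkar1a ran from 0.56 to 0.90 in young AL and from 0.48 to 0.86 in old AL mice, and its difference by age over both diets was -0.0466 ± 0.0454.

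Cdk5 had an age difference of -0.0365 ± 0.0627 and a diet difference of 0.00300 ± 0.0503. For Ppp1cb, the beta catalytic subunit of PP1, these were -0.0506 ± 0.0461 and 0.00228 ± 0.0370, and for Ptprs 0.0192 ± 0.0485 and -0.0189 ± 0.0389.

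The 51 low genes were tested only in a fit of all 7782 rows with no filter. limma called 0 of the 58 kinase and 43 phosphatase genes there in each contrast. In old against young mice of both diets 2 of them had an unadjusted p under 0.05, against 0.758% of all rows. They were Prkar2b, a PKA regulatory subunit, at -0.0775 ± 0.0350, and Ppp4r2, a regulatory subunit of protein phosphatase 4, at -0.0971 ± 0.0473 (SE; adjusted p = 1.00 each).

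The partners of these enzymes were followed in listed genes of 4 pathways, and limma called 0 of them in each contrast. Of 41 genes listed for cyclic AMP and PKA, 9 were named on the array and 3 tested, with a median difference between old and young mice of -0.0186. Of 31 for calcium and calmodulin, 10 were named and 7 tested, with 1 higher and 6 lower in old mice and a median of -0.0533. Over all rows 54.3% were higher. None of the 7 had an unadjusted p under 0.05 by limma. The lowest was Nfatc3, a transcription factor that calcineurin activates, at -0.0747. Within AL mice 3 of the 7 were higher and 4 lower in old mice, and within CR mice 1 and 6. Of 47 for Ras and MAP kinases 7 were tested, with a median of 0.00538, and of 28 cyclins and related genes 8, with a median of 0.00317.

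Markers of other cells were few among the genes named. Over the adult groups the summed score of 5 astrocyte markers had medians of 0.713 to 1.25, that of 4 microglial and immune markers 0.375 to 0.540, and that of 4 blood markers -0.585 to -0.243, and within every group the range was wider than these differences. Of the astrocyte markers 3 were tested, with 2 higher and 1 lower in old than in young mice. Their median difference was 0.056 in AL mice and 0.0447 over both diets. The largest was that of Cst3, cystatin C, at 0.277 ± 0.0943 in AL mice (SE, unadjusted p = 0.00502, adjusted p = 1.00 by limma). This was also the highest difference of all rows in that contrast. Over both diets it was 0.218 ± 0.0704 (SE, unadjusted p = 0.00325, adjusted p = 1.00 by limma), where the kinase and phosphatase genes differed by at most 0.0795. The part of these markers in the values above was not tested. In bulk tissue, fewer cells of a type and less RNA for each cell cannot be told apart.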

How the data were processed

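Total RNA of the striatum of each mouse was labelled with a radioactive nucleotide and hybridised to 1 nylon filter. The deposited values are a score per feature: Z scores that the authors made from the signal of each array. Screens were read with ArrayPro, per the study; background treatment and log base are not given in the sources used here, and no depth applies, so the number of arrays limits the precision. Groups came from titles and characteristics. Symbols came from the array's annotation, and the identifiers of all genes described matched RefSeq. Features of a gene were averaged, giving 7782 rows. Rows with a mean score above 0 were fitted in limma 3.58.1 (R 4.3.3), with 1 mean for each of 12 adult groups by age, diet and sex, or with age and sex for the 20 juvenile and young AL mice. P-values were adjusted over all rows by Benjamini-Hochberg, with a threshold of 0.05. An array stood apart if its correlation with the median profile was under 0.95.

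The genes, lists and alternatives were chosen with earlier results of these data known. Genes were named if they passed, or else as the 5 with the smallest p in each direction, beside a list of striatal signaling genes; the 10 genes given mouse by mouse had an unadjusted p under 0.05 or passed with gene-by-gene weights, and were chosen after their values were seen. Alternatives were no filter, quantile normalization, a block, array weights, arrays left out or given a term, and corrections for place. Further ones were the 2 columns as deposited or left out, features as rows, the groups compared alone and part of the rule that the study states. The limma code was tested on simulated data. Figures were drawn in matplotlib.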

Additional observations from a re-analysis of the deposited data

Results flagged for a closer look

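In groups of 4 to 10 mice the highest or lowest value was set against the rest by Dixon's criterion, over the 10 genes given by mouse and the median of each class, in 96 groups of values. It was passed in 15, of which 12 came from arrays that stand apart. In a single group of values chosen beforehand, chance passes about 1 in 20. That share is no measure for these 96 groups, which share mice and hold genes chosen after their values were seen. For Csnk1g2, Ppp1r12b, Prkaa1 and Prkaca the arrays that stand apart lay outside all others. Outliers from those arrays were thus largely given by the choice of genes. The values below are descriptions.

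Young CR female replicate 4, an array that stands apart, lay above the other young CR mice for Ppp1r12b (1.86, the rest 1.19 to 1.42), Prkaa1 (1.55, the rest 0.890 to 1.01) and Prkaca (0.615, the rest 0.0750 to 0.290). Middle AL female replicate 2, another such array, lay above its group for Map3k7 (0.610), Ppp1r12b (1.79), Prkaa1 (1.43) and Prkaca (0.610) and below it for Csnk1g2 (0.250, the rest 0.740 to 0.880). Further arrays of this kind did so: middle CR male replicate 3 for Prkaca (0.625), old AL male replicate 4 for Prkaca (0.640) and Csnk1g2 (0.220), and old CR male replicate 3 for Csnk1g2 (0.0800).

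The remaining values came from arrays that do not stand apart. Cdk2ap1 was low in middle AL male replicate 3 (0.440, the rest 0.660 to 0.760) and in old CR female replicate 4 (0.460, the rest 0.720 to 0.890). In the same old CR female the median of the kinase genes, relative to each gene's mean over the adult groups, was -0.0749, with the rest of the group at 0.00440 to 0.0387. The median of all tested rows was low in this mouse as well, at -0.0491, with the rest of the group at -0.00238 to 0.0370. That of the phosphatase genes was -0.0711. The low value was thus not particular to the kinase genes.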

How the results depend on the processing

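Of 963 counts of genes called under the alternatives, 950 were the same as the 0 reported. Most of these counts come from fits that left out 1 array, in which no row of the whole array was called, so they say little. No named gene passed in the main fit, and those that passed under an alternative kept the sign of the main fit. The array weights that limma estimates by default called 3 genes in middle against young CR, 2 in old against middle CR, 10 in old against young CR, 2 in old against young of both diets and 2 in CR against AL old; the estimate did not converge and gave 63.8% of the adult weight to 1 array, old CR male replicate 2. The gene-by-gene weights were added after seeing the data, and in them no array had more than 6.31%. They called 3, 1 and 4 genes in the first 3 of these contrasts, against 13.1%, 0.205% and 10.5% of all rows. The share of all rows called with the default weights is not given here. The counts of that fit are therefore not read as a result about these genes. Part of the rule of the study's methods, which adjusts no p, was applied to genes with features averaged. It asked for a difference above 1.5 SDs of all differences and an unadjusted p under 0.05 by limma. The ANOVA that the study adds was left out. This called 1 gene in middle against young AL, 2 in old against middle CR and 1 in CR against AL middle. It also called 1 in CR against AL over all ages and 1 in young adults against early juveniles. The share of all rows is not given here for these counts either, so they are not read as a result about these genes. Leaving out each array in turn called 0 to 0 genes in every contrast. At an unadjusted p under 0.05 the count over all rows reached 451 in middle against young CR and 197 in CR against AL young without young CR female replicate 4, and 239 in old against young CR without old CR male replicate 1.

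The labels give no replicate numbers that pair mice, and a replicate block for the run of title numbers called 0 genes in each contrast; deviations correlated at a mean r of 0.191 within runs and -0.0441 between them. The corrections for place in the file called 0 genes as well, and those by grid were added after seeing the data.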

Other observations

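A pair of low kinase genes had 1 array far above all others, the same for both. In late juvenile AL male replicate 1, Csnk1g1, a casein kinase, had a score of 0.640, with the next highest of 67 mice at -0.110 and a median of -0.700. Mapkapk2, a kinase downstream of p38, had 0.670 there, with the next highest at -0.0400 and a median of -0.890. This array did not stand apart from the median profile. The features of both genes lay at the same place, 17, of the repeat of rows in file order, which the score also followed. Whether other features at that place were high in this array was not tested, nor was the cause of the high values. Among all features, 90 were named for ribosomal proteins, genes of high expression in most tissues, and had a mean score of 0.453. For a finer correction, the file order was read as 16 blocks of 22 columns by 24 rows. The columns are the places of the repeat of 22 rows. The mean score became -0.0229 after the mean of the features at the same column and row was taken out.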
